A study of Homo sapiens with 4 samples.

Results

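The 49 genes described here act in the G2 phase of the cell cycle and in mitosis. They were chosen by name from a list of cyclins, mitotic kinases, spindle checkpoint proteins, kinesins, condensin subunits and related proteins. Of the 49 genes, 48 had a probe set that carries their symbol alone, out of 18417 genes with such a probe set on the array. The exception was CENPA, the centromeric histone variant, whose probe set lists several symbols and from which no gene was named. Each gene was read from its brightest probe set, by mean log2 intensity, and only BIRC5 had more than 1.

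RNA came from NOMO-1, an established line from a human monocytic leukaemia (AML), transduced with lentivirus at a multiplicity of infection of 1 and harvested 48 h after selection. The control group, labelled ZFX wild type, held 1 array for LEN-GFP, a GFP virus, and 1 for SCR, a scrambled hairpin. The ZFX knock-down group held an array each for hairpins SH1 and SH3 against ZFX, a zinc finger transcription factor. No construct was repeated, and the labels do not say whether the cultures came from separate experiments. The p-values thus reflect only how these arrays and constructs vary, which may be technical.

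Cyclin B binds the kinase CDK1, and the CDC25 phosphatases switch this pair on to start mitosis. The spindle checkpoint then holds back the ubiquitin ligase APC/C and its activator CDC20 until every chromosome is attached to spindle microtubules, and kinesins and condensin move and compact the chromosomes. Most of these genes are transcribed late in the cell cycle, many through a promoter element called CHR that is bound by the MuvB complexes. Their RNA in a culture can thus vary with the share of dividing cells, which was not measured here.

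ZFX itself had a log2 intensity of 10.65 on LEN-GFP, 10.66 on SCR, 10.13 on SH1 and 10.12 on SH3. The hairpin arrays stood at 69.7% and 68.9% of the control level, below both controls, and in limma the fall passed on SH3 (log2 -0.54, SE 0.12, adjusted p = 0.0185) but not on SH1 (-0.52, SE 0.12, adjusted p = 0.121) or for the pair (-0.53, SE 0.10, adjusted p = 0.797). The median intensity of the arrays lay between 184.8 and 189.8. Of 15 markers of myeloid cells, 12 had a probe set of a single symbol and all 12 passed the filter on dim genes, as did 1 of 7 T cell, 4 of 5 B cell, 2 of 4 erythroid, 3 of 5 megakaryocyte, 3 of 6 epithelial and 4 of 6 fibroblast markers on the array. No gene of these 6 lists of other cell types was called in any comparison. Of the 12 myeloid markers, 2 rose and 1 fell on SH3 (25% called, against 13.3% of all genes) and 1 rose on SH1 (8.33% against 0.403%), and their part in the results below was not tested. All 48 G2 and mitosis genes passed this filter, which left out the 30% of genes with the lowest mean.

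With the hairpin arrays taken as a pair, the G2 and mitosis genes stayed near their control level. Their differences lay between -0.29 for MAD2L1 and 0.27 for TTK on the log2 scale, with a median of 0.03, against -0.0029 over all 12892 genes tested. Leaving out 1 array put this median between 0.0149 (without SH3) and 0.0835 (without SH1). In limma 0 of 48 passed an adjusted p of 0.05, where 0% of all genes did (0 of 12892), and 0 of 48 had an unadjusted p under 0.05, against 6.04% of all genes. Without SH1 3 of 48 passed (CENPF, KIF23 and TTK), as did 1698 of all genes, and without SH3 0 of 48 and 54. The 95% interval of the difference lay within 1 log2 unit of 0 for 48 of 48 genes, and within 0.5 for 34 of 48. Both hairpin arrays lay above both controls for 10 genes (18.2% of all genes) and below both for 2 (19.0% of all genes). The 10 were AURKA, NEK2, TTK, CDCA3, KIF2C, KIF4A, KIF11, PRC1, ANLN and ASPM, and the 2 were MAD2L1 and NCAPH. In all 25% of the G2 and mitosis genes were separated in this way, against 37.2% of all genes. In RNA from whole cultures, a changed share of cells in mitosis and changed RNA in each of them cannot be told apart.

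**Figure D1:**
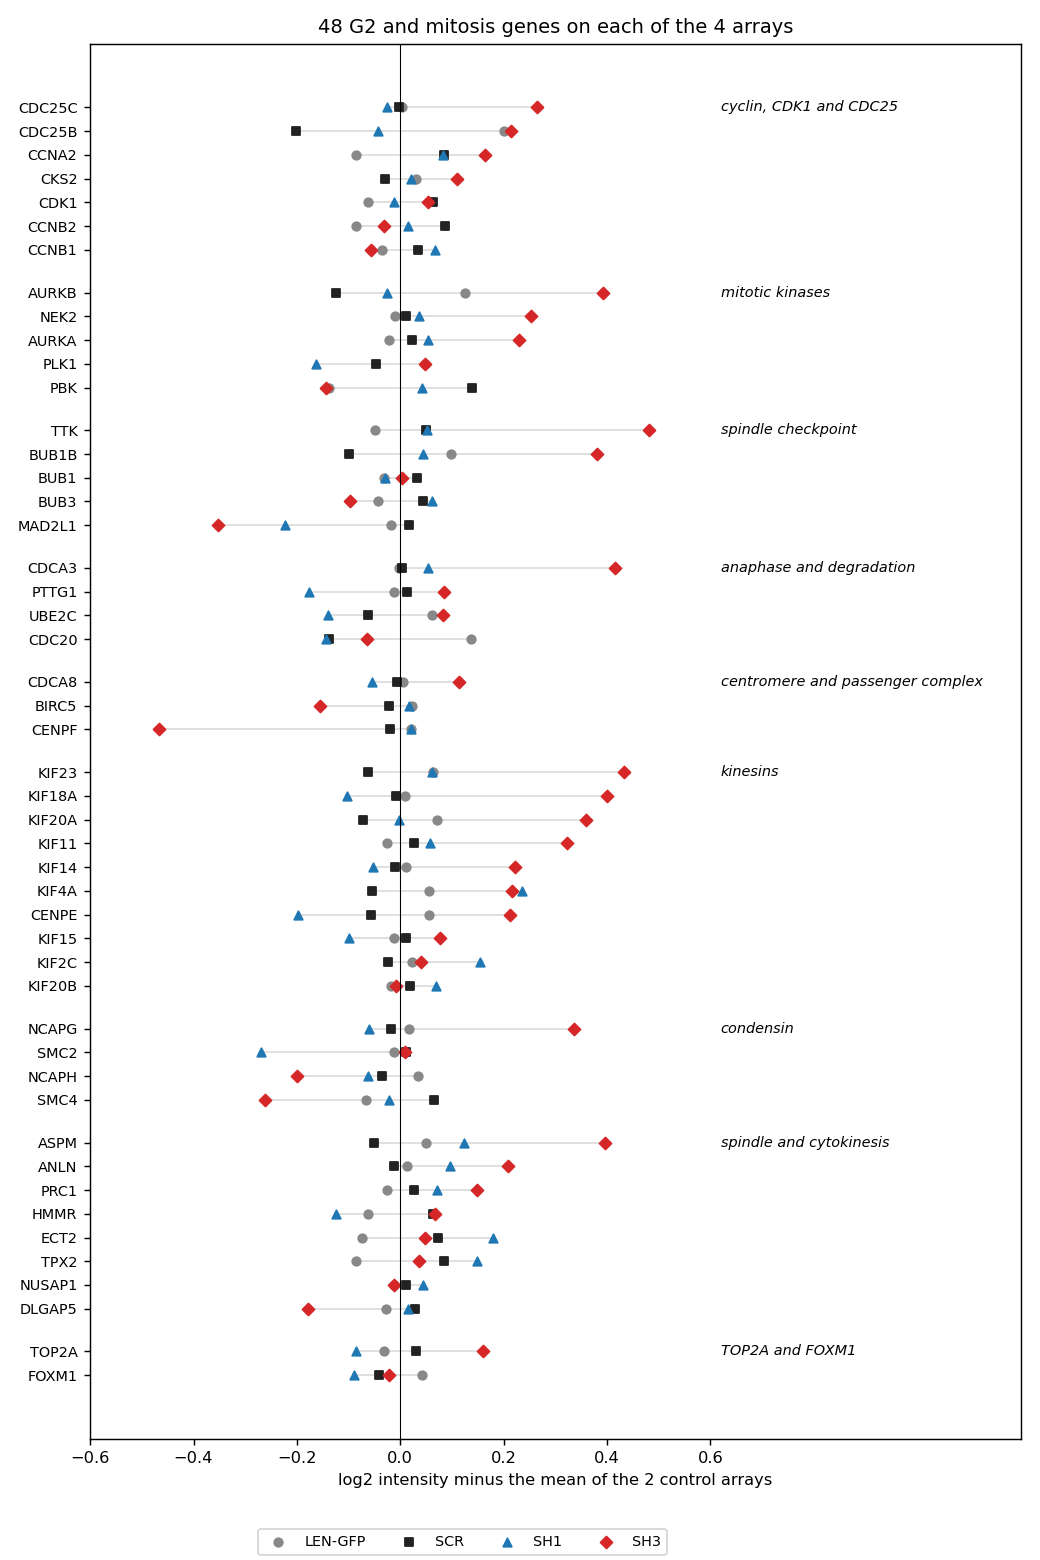
Log2 intensity of 48 G2 and mitosis genes on each of the 4 arrays, minus the mean of the 2 control arrays of that gene, by role. Grey circles are LEN-GFP, black squares SCR, blue triangles SH1 and red diamonds SH3; SH3 is above both controls for 29 genes and below both for 10, and its differences run from -0.47 (CENPF) to 0.48 (TTK).

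Set singly against the controls, the hairpin arrays gave calls among these genes on SH3 and none on SH1. On SH1 the differences lay between -0.27 and 0.24 with a median of 0.01 (-6e-04 and 1e-04 against single controls), and the median absolute difference was 0.06, against 0.10 for all genes. In limma 0 of 48 genes passed on SH1 (0.403% of all genes, 52 of 12892), with a smallest adjusted p of 0.437, and 1 of 48 had an unadjusted p under 0.05 (10.0% of all genes). On SH3 the differences lay between -0.47 and 0.48 with a median of 0.08, and 34 were higher and 14 lower, against 49.7% higher over all genes. Their median absolute difference was 0.16, the same as the 0.16 of all genes. Between the control arrays it was 0.0671, against 0.105 for all genes, and between SH3 and SH1 0.1889, against 0.1605. In limma 4 of 48 passed on SH3, or 8.33%, against 13.3% of all genes (1719 of 12892). TTK, KIF23 and ASPM rose (6.33% of all genes rose) and CENPF fell (7.0% of all genes fell, 903 of 12892). SH3 lay above both controls for 29 genes (38.7% of all genes) and below both for 10 (39.8%), and SH1 for 17 (34.5%) and 17 (34.8%). Together these were 39 genes outside the controls on SH3 (78.5% of all genes) and 34 on SH1 (69.4%). Each fit assumes for the lone array the spread of the controls, and both comparisons share these controls. In the direct comparison of SH3 with SH1, 1 of 48 genes passed, CENPF, or 2.08% against 8.49% of all genes (4.01% higher and 4.48% lower on SH3).

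**Figure D2:**
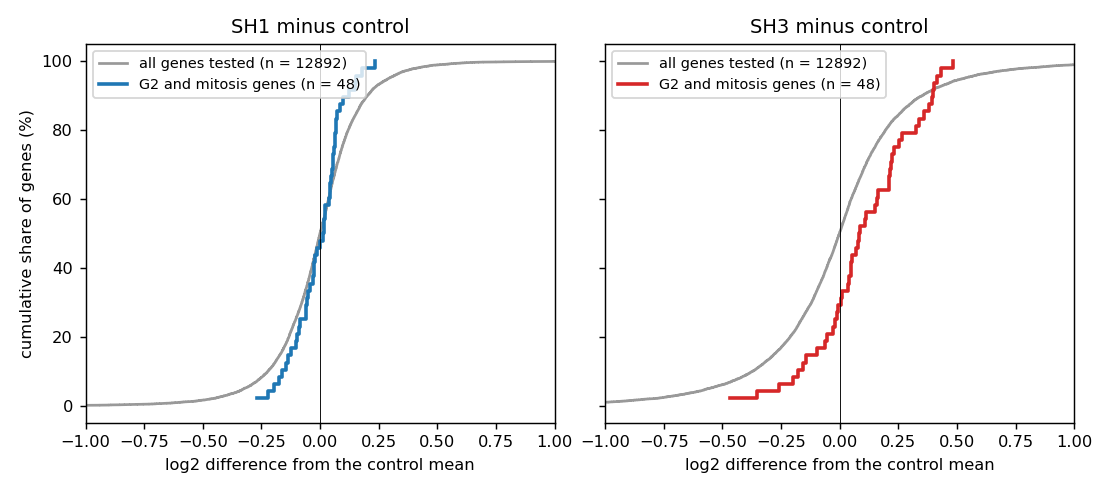
Cumulative share of genes, in percent, by their log2 difference from the control mean, for SH1 (left) and SH3 (right). Grey is all 12892 genes tested and colour the 48 G2 and mitosis genes, whose median is 0.01 on SH1 and 0.08 on SH3, and whose curves end before -0.5 and 0.5 on both arrays.

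TTK is the kinase, also known as MPS1, that starts the spindle checkpoint at unattached kinetochores. Its log2 intensity was 10.32 on LEN-GFP, 10.42 on SCR, 10.42 on SH1 and 10.85 on SH3. SH1 lay beside SCR, and SH3 stood apart above the other three arrays. TTK was 1.40-fold higher on SH3 than in the controls (log2 0.48, SE 0.12, limma adjusted p = 0.0300), and its difference between SH3 and SH1 was 0.43 (SE 0.14, limma adjusted p = 0.0998).

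KIF23 is the motor of centralspindlin, which bundles microtubules between the separating chromosomes and positions the cleavage furrow. Its log2 intensity was 10.97 on LEN-GFP, 10.84 on SCR, 10.97 on SH1 and 11.34 on SH3. SH1 matched LEN-GFP, while SH3 exceeded both controls. The rise on SH3 was 1.35-fold (log2 0.43, SE 0.11, limma adjusted p = 0.0364).

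ASPM keeps microtubule minus ends focused at the spindle poles. Its log2 intensity was 10.84 on LEN-GFP, 10.74 on SCR, 10.91 on SH1 and 11.18 on SH3. Both hairpin arrays lay above both controls. ASPM was 1.32-fold higher on SH3 (log2 0.40, SE 0.11, limma adjusted p = 0.0493), and on SH1 the difference was 0.12 (SE 0.11, limma adjusted p = 0.861).

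CENPF is a large coiled-coil protein that accumulates in G2 and joins the outer kinetochore. Its log2 intensity was 10.98 on LEN-GFP, 10.94 on SCR, 10.98 on SH1 and 10.50 on SH3. The controls and SH1 lay close together, and SH3 alone was low. CENPF fell on SH3 to 72.4% of the control level (log2 -0.47, SE 0.11, limma adjusted p = 0.0247) and was lower on SH3 than on SH1 by a log2 difference of -0.49 (SE 0.13, limma adjusted p = 0.0493).

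These calls depended on the settings of the fit. With no filter on dim genes CENPF alone of the 48 passed on SH3 (limma adjusted p = 0.0422), where 7.66% of all genes did. Without an intensity trend CENPF and TTK passed, where 11.2% of all genes did. With SH1 left out of the fit, an alternative added after the data were seen, ASPM was lost (limma adjusted p = 0.0510). With every array centred on its median 11 passed on SH3, 10 of them higher (AURKB, BUB1B, CDCA3, KIF11, KIF18A, KIF20A and NCAPG beside TTK, KIF23 and ASPM) and CENPF lower, against 19.6% of all genes in that setting.

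The promoters of genes that passed, and of some with the largest differences in their group, were read to show an element that many of these genes share. The windows run from 250 bases before to 50 after the start site, from RefSeq on GRCh38.p14, and 41 of 49 genes matched at least 1 window. AURKA, BIRC5, BUB3, FOXM1, PBK, TPX2, TTK and UBE2C were not matched. In the windows below capitals mark TTTGAA, the CHR element, and CCAAT, the box bound by NF-Y, in either orientation (TTCAAA and ATTGG on the other strand). CENPF (chr1:214602945-214603244, plus strand) fell on SH3, and KIF23 (chr15:69414099-69414398, plus strand) and ASPM (chr1:197146620-197146919, minus strand) rose there. MAD2L1 (chr4:120066799-120067098, minus strand) and KIF4A (chrX:70289854-70290153, plus strand) had the largest differences of their groups on SH1, and CDCA3 (chr12:6851237-6851536, minus strand) that of its group on SH3.
CENPF: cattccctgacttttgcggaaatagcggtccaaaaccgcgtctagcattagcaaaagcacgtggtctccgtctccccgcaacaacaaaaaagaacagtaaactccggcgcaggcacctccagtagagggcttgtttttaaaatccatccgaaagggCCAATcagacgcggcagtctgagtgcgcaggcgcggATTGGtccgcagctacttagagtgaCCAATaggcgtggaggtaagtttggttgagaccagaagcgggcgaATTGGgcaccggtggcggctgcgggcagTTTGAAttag
KIF23: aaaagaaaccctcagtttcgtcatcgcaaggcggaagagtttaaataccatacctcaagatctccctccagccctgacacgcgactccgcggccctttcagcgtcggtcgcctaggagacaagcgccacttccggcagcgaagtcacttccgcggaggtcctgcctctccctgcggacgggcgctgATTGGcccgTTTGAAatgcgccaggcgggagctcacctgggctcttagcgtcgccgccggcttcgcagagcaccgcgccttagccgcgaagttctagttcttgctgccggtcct
ASPM: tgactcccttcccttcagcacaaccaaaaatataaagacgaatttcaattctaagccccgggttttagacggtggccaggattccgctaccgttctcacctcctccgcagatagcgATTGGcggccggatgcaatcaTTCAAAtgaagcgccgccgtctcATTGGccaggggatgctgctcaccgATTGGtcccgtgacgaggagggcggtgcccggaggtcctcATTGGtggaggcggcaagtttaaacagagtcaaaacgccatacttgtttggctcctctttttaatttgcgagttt
MAD2L1: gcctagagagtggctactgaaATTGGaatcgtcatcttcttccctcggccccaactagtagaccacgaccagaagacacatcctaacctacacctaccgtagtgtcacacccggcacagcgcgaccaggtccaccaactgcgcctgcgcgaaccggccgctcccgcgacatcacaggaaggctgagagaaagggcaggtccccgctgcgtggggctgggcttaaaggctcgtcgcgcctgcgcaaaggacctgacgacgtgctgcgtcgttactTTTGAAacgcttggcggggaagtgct
KIF4A: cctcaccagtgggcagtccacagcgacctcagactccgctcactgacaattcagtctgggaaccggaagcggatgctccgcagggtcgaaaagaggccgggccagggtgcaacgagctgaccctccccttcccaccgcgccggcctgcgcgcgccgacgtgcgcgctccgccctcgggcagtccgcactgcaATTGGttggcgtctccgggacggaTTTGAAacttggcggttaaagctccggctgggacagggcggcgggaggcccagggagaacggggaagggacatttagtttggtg
CDCA3: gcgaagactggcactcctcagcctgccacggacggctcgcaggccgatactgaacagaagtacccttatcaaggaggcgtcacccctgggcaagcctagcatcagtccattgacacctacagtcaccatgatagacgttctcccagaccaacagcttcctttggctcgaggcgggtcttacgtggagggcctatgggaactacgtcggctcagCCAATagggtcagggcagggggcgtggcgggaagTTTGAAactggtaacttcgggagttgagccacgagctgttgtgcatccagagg
Each of these 6 windows holds 1 TTTGAA match. Its leading base lies at -55 in KIF23, at -34 in KIF4A, at -3 in CDCA3, at 25 in MAD2L1, at 41 in CENPF and at -113 in ASPM, counted from the start site. KIF23, KIF4A, CDCA3, CENPF and ASPM have a CCAAT match a short way upstream of it, and CENPF and ASPM hold 4 CCAAT matches each. In MAD2L1 the CCAAT match starts at -229, far upstream. All 6 windows hold both motifs, which stood together in a window of 24 of the 41 genes. Of other genes with the largest difference in their group, AURKB, PTTG1 and CCNA2 had no TTTGAA, and SMC2 and NCAPG no CCAAT. A link between the motifs and the direction of a difference was not tested.

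Over all windows of these genes, TTTGAA was in 33 of 53 (62.3%), against 15.2% of all 35116 windows and 10.6% of the 14626 windows of genes tested. CCAAT was in 71.7%, against 34.6% and 34.0%. The motifs stood together in 49.1% of the windows, against 5.9% and 4.1%, and overlapped in 1 window. Of the 30 genes with TTTGAA, 25 had it no more than 50 bases from the start site. The palindrome AGGCCT, the core of the motif known for ZFX, was in 9.43% of the windows, against 10.9% and 11.0%, and the 4 genes were CCNB1, CDC25B, CDK1 and SMC2. These 4 had a median difference of -0.03 on SH1 and 0.03 on SH3, and the other 36 tested genes with a window 0.01 and 0.13. The 29 tested genes with TTTGAA had a median of 0.11 on SH3 and the 11 without it 0.16. A match says only that these letters are present in the window.

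The cyclins, CDK1 and its regulators were close to the controls on both hairpin arrays. On SH1 the 7 genes lay between -0.04 and 0.08 and on SH3 between -0.06 and 0.26, and 0 of 7 passed on either. CCNB1, the main mitotic cyclin, had 10.76 on LEN-GFP, 10.83 on SCR, 10.86 on SH1 and 10.73 on SH3. CDK1, its catalytic partner, had 10.91, 11.04, 10.96 and 11.03 on the same arrays. Both hairpin values of CDK1 lay between the controls, and its 95% interval on SH3 ran from -0.20 to 0.31. CCNA2, the cyclin of S phase and early mitosis, had 11.63, 11.80, 11.80 and 11.88, with LEN-GFP the lowest. CCNB2 had 12.06, 12.23, 12.16 and 12.11, with both hairpin arrays between the controls. CDC25C, a phosphatase that activates CDK1, had 9.29 on both controls, 9.26 on SH1 and 9.55 on SH3. Its difference on SH3 was 0.26 (SE 0.14, limma adjusted p = 0.268). The related CDC25B had 10.14 on LEN-GFP and 9.73 on SCR, so its controls differed by more than either hairpin array did from their mean. CKS2, a small subunit that docks on CDK1, differed by 0.02 on SH1 and 0.11 on SH3.

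Of the kinases PLK1, AURKA, AURKB, NEK2 and PBK, 4 of 5 were higher on SH3 with a median of 0.23, and 0 of 5 passed. AURKB, the kinase of the chromosomal passenger complex, had 10.90 on LEN-GFP, 10.65 on SCR, 10.75 on SH1 and 11.17 on SH3. SH3 exceeded both controls, which themselves differed by -0.25 (SCR minus LEN-GFP). The difference on SH3 was 0.39 (SE 0.13, limma adjusted p = 0.0872). AURKA, which matures the spindle poles, had 11.11, 11.16, 11.19 and 11.36, and NEK2, a kinase of centrosome separation, 10.12, 10.14, 10.17 and 10.38. In both genes the hairpin arrays lay above the controls, with 0.23 and 0.25 on SH3 and 0.05 and 0.04 on SH1. PLK1, which acts from mitotic entry to cytokinesis, had 12.20 on LEN-GFP, 12.11 on SCR, 11.99 on SH1 and 12.20 on SH3. It was lowest on SH1, at -0.16 (SE 0.09, limma adjusted p = 0.663). PBK, a mitotic kinase of the MAPKK family, had controls 0.28 apart and hairpin values of 0.04 and -0.14. With CDK1, TTK, BUB1 and BUB1B added, 8 of 9 kinases were higher on SH3, with a median of 0.23 (7 of 9 with quantile normalization again), and 5 of 9 on SH1, with 0.04 (0.0478 against LEN-GFP alone and 0.0026 against SCR alone).

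The spindle checkpoint genes split on SH3. TTK and BUB1B were at the upper end, MAD2L1 at the lower, and the median of the 5 was 0.0034. BUB1B, the BubR1 subunit of the complex that blocks CDC20, had 11.06 on LEN-GFP, 10.86 on SCR, 11.01 on SH1 and 11.34 on SH3. The difference on SH3 was 0.38 (SE 0.12, limma adjusted p = 0.0728), and SH1 lay between the controls. MAD2L1, the MAD2 protein that binds CDC20, had 10.18 on LEN-GFP, 10.21 on SCR, 9.97 on SH1 and 9.84 on SH3. Both hairpin arrays lay below both controls, which were 0.03 apart. Its difference was -0.22 on SH1 (SE 0.12, limma adjusted p = 0.652) and -0.35 on SH3 (SE 0.12, limma adjusted p = 0.103). BUB1, a kinetochore kinase, differed by -0.03 on SH1 and 0.0034 on SH3, and BUB3, the partner that brings BUB1 and BUB1B to kinetochores, by 0.06 and -0.10. With the arrays quantile normalized again the median of the 5 on SH3 was -0.01, and it was 0.0354 against LEN-GFP alone and -0.0286 against SCR alone.

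The kinesins were mostly above the controls on SH3 and evenly divided on SH1. On SH3 9 of 10 were higher, with a median of 0.22, and 9 of 10 lay above both controls (38.7% of all genes). On SH1 5 of 10 were higher, with a median of 0.03. The SH1 median was -0.0324 against LEN-GFP alone and 0.0415 against SCR alone, and the SH3 median 0.187 and 0.270. KIF23 alone of the 10 passed. KIF18A, which dampens chromosome oscillations at the metaphase plate, had 10.38 on LEN-GFP, 10.36 on SCR, 10.27 on SH1 and 10.77 on SH3. It was highest on SH3 and lowest on SH1, with a difference between them of 0.50 (SE 0.13, limma adjusted p = 0.0536). KIF20A, a motor of cytokinesis, had 10.79, 10.65, 10.72 and 11.08, and KIF11, the Eg5 motor that pushes spindle poles apart, 10.99, 11.04, 11.07 and 11.33. Their differences on SH3 were 0.36 and 0.32, with limma adjusted p of 0.0820 and 0.0830. CENPE, a kinesin that carries chromosomes to the plate, had 10.06 on LEN-GFP, 9.94 on SCR, 9.80 on SH1 and 10.21 on SH3, with -0.20 on SH1 and 0.21 on SH3. The hairpins lay on opposite sides of the controls, and the difference between them was 0.41 (SE 0.15, limma adjusted p = 0.142).

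KIF4A, a chromosome-bound motor that shortens the midzone, was the kinesin that stood furthest from the controls on SH1. It had 9.82 on LEN-GFP, 9.71 on SCR, 10.00 on SH1 and 9.98 on SH3. Both hairpin arrays lay above both controls, by 0.24 and 0.22 from their mean, and neither passed (limma adjusted p = 0.652 and 0.354). Its probes were not separated here from the near-identical copy KIF4B. KIF2C, a microtubule depolymerase of the centromere, differed by 0.15 on SH1 and 0.04 on SH3, KIF14 by -0.05 and 0.22, KIF15 by -0.10 and 0.08, and KIF20B by 0.07 and -0.0080.

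The condensin genes were divided. On SH1 4 of 4 were lower, with a median of -0.06, and on SH3 2 of 4 were, with a median of -0.10, and none of the 4 passed in limma on either array (smallest adjusted p = 0.437 and 0.0690). SMC2 is a core ATPase of condensin. It had 10.97 on LEN-GFP, 10.99 on SCR, 10.71 on SH1 and 10.99 on SH3. SH1 alone was low, at 83.0% of the control level (log2 -0.27, SE 0.11), and SH3 lay between the controls. Its partner SMC4 had 12.08, 12.21, 12.12 and 11.88. Here SH3 alone was low (log2 -0.26, SE 0.10, limma adjusted p = 0.120). NCAPG, a HEAT-repeat subunit of condensin I, had 11.11, 11.08, 11.03 and 11.43, with SH3 above the rest (log2 0.34, SE 0.10, limma adjusted p = 0.0690). NCAPH, the kleisin that closes the same complex, had 11.05, 10.98, 10.96 and 10.82, with both hairpin arrays below both controls and differences of -0.06 and -0.20. On SH3 the 4 subunits ranged from -0.26 to 0.34, and with the arrays quantile normalized again 3 of 4 were lower there.

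**Figure D3:**
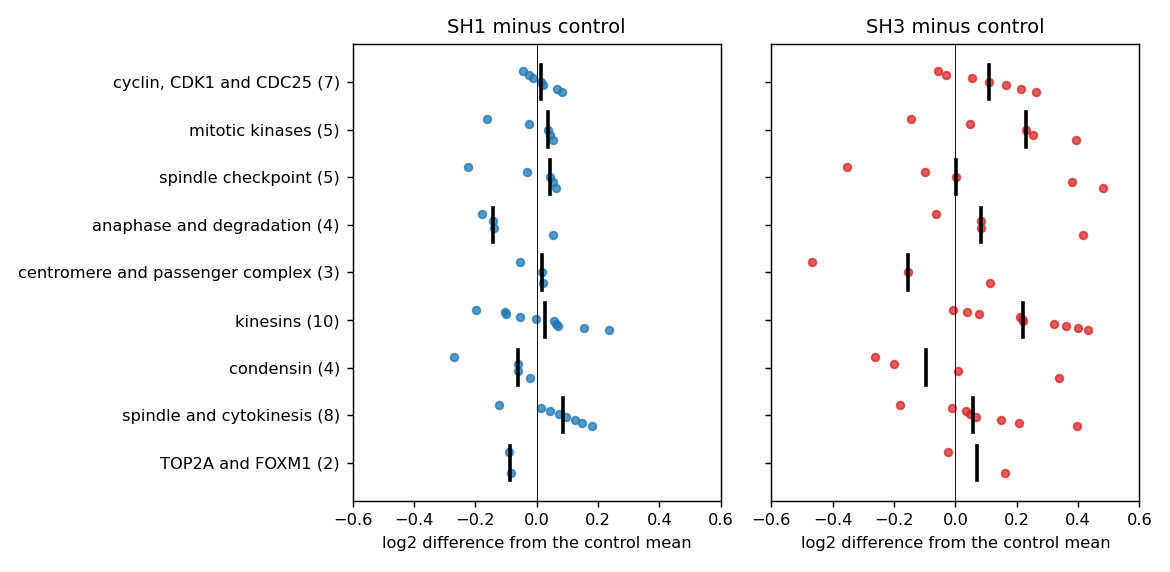
Log2 difference from the control mean of each gene, by role, on SH1 (left) and SH3 (right). Points are genes, black bars the median of a group, and numbers in brackets the genes in it. The kinesin median is 0.03 on SH1 (-0.0324 against LEN-GFP alone) and 0.22 on SH3, and the condensin median -0.06 and -0.10.

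Genes of anaphase and protein degradation were lower on SH1 for 3 of 4 and higher on SH3 for 3 of 4, and none of the 4 passed. CDCA3, an adaptor for degradation of WEE1, had 9.89 on both controls, 9.95 on SH1 and 10.31 on SH3. It was 1.33-fold above the controls on SH3 (log2 0.41, SE 0.12, limma adjusted p = 0.0620). PTTG1, or securin, the inhibitor of separase, had 10.23 on LEN-GFP, 10.26 on SCR, 10.07 on SH1 and 10.33 on SH3, with -0.18 and 0.08. Its probes were not separated here from the related copies PTTG2 and PTTG3P. UBE2C, the ubiquitin-conjugating enzyme of APC/C, had differences of -0.14 and 0.08. CDC20 had 11.86 on LEN-GFP and 11.59 on SCR, with 11.58 on SH1 and 11.66 on SH3. Both hairpin arrays lay near SCR.

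The remaining genes of the passenger complex stayed near the controls. CDCA8, or borealin, had 10.57 on LEN-GFP, 10.56 on SCR, 10.51 on SH1 and 10.68 on SH3, with -0.06 and 0.11. BIRC5, or survivin, differed by 0.02 and -0.15. The second probe set of BIRC5 gave 0.13 and 0.08, but lay under the level of 6.70 at which dim genes were left out.

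Of the 8 genes of spindle assembly and cytokinesis, 7 were higher on SH1, with a median of 0.08, and 6 on SH3, with a median of 0.06. Against LEN-GFP alone the SH3 median was 0.126 and against SCR alone -0.0097, and the SH1 medians were 0.0785 and 0.0542. ASPM alone of the 8 passed. ECT2, an exchange factor that acts at the cleavage furrow, had 11.19 on LEN-GFP, 11.34 on SCR, 11.44 on SH1 and 11.31 on SH3. It was highest on SH1 (log2 0.18, SE 0.11, limma adjusted p = 0.706), with controls 0.15 apart. ANLN, the anillin of the contractile ring, had 11.40, 11.38, 11.49 and 11.60, and PRC1, which crosslinks midzone microtubules, 11.21, 11.27, 11.31 and 11.39. In both genes the hairpin arrays lay above the controls. TPX2, an activator of AURKA, differed by 0.15 on SH1 and 0.04 on SH3, NUSAP1 by 0.04 and -0.01, HMMR by -0.12 and 0.07, and DLGAP5, a kinetochore fibre protein, by 0.02 and -0.18.

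FOXM1, the transcription factor of late cell cycle genes, had 10.84 on LEN-GFP, 10.75 on SCR, 10.71 on SH1 and 10.77 on SH3. All 4 arrays lay within a narrow range, and the 95% interval of the difference on SH3 ran from -0.28 to 0.23. TOP2A, the topoisomerase that untangles sister chromatids, had 12.41, 12.47, 12.36 and 12.60. SH3 was highest and SH1 lowest, with a difference between them of 0.25 (SE 0.10, limma adjusted p = 0.177).

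**Figure D4:**
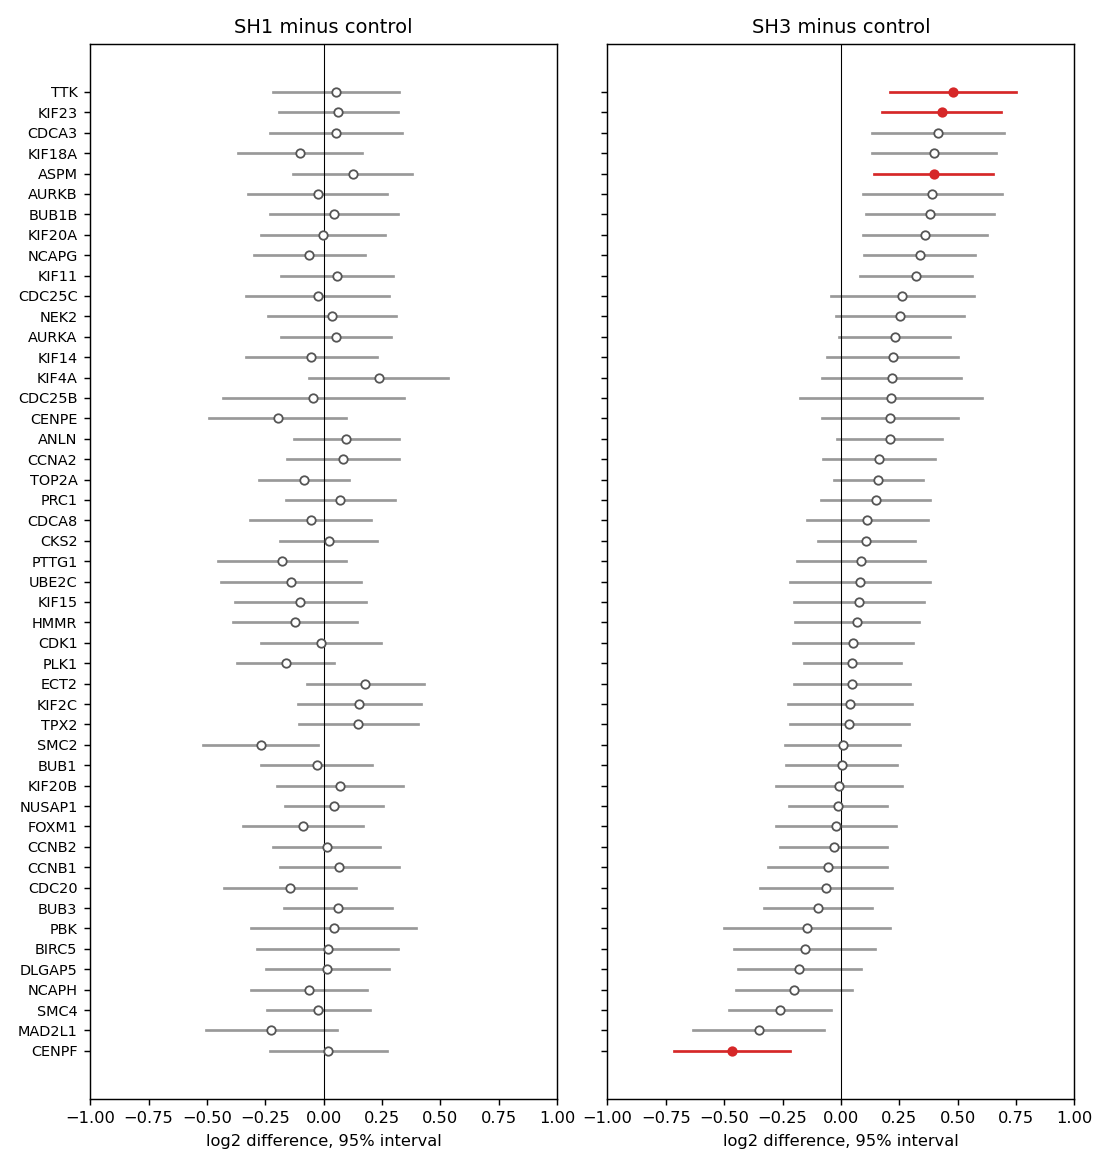
Log2 difference from the control mean with its 95% interval for 48 G2 and mitosis genes on SH1 (left) and SH3 (right), ordered by the difference on SH3. Filled points in colour passed an adjusted p of 0.05 in limma, which 0 genes did on SH1 and 4 on SH3. The intervals lie within 1 log2 unit of 0 for 48 of 48 genes on both arrays.

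The width of the intervals sets what these arrays could show. The SE of a gene lay between 0.08 and 0.17 for each hairpin array. The interval lay within 0.5 of 0 for 45 of 48 genes on SH1 and 30 of 48 on SH3. On SH3 13 of 48 intervals excluded 0, 10 on the higher side, or 27.1% against 26.3% of all genes at the same unadjusted p.

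A wider list of 110 other genes of G2 and mitosis, of which 108 were tested, was read in the same way. On SH3 6 rose and 2 fell, or 7.41% against 13.3% of all genes, and the median was 0.10. LIN52, a subunit of MuvB, rose by 0.75 on the log2 scale (SE 0.13, limma adjusted p = 0.00753), from 9.50 on LEN-GFP and 9.43 on SCR to 10.22, with 9.38 on SH1. CENPI, a centromere protein, rose by 0.74, CKAP2L, a spindle protein, by 0.57, and KNTC1, which brings the checkpoint to kinetochores, by 0.41. MASTL, the Greatwall kinase, rose by 0.36. ANAPC1, the largest subunit of APC/C, fell by 0.60 and MYBL2, the B-Myb factor that joins MuvB, fell by 0.44.

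On SH1 1 of the 108 passed (0.403% of all genes). KIF2A, a microtubule depolymerase related to KIF2C, fell to 59.7% of the control level (log2 -0.74, SE 0.10, limma adjusted p = 0.0204). It had 11.75 on LEN-GFP, 11.80 on SCR, 11.03 on SH1 and 11.67 on SH3, so SH1 was far below both controls and SH3 just below them. Between SH3 and SH1 7 of 108 passed, or 6.48% against 8.49% of all genes. LIN52, CENPI, CKAP2L, KIF2A, ESPL1 and CENPN were higher on SH3 and ANAPC1 was lower.

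Genes of earlier cell cycle phases stand beside these. Of 47 genes of DNA replication and S phase, 6 were called on SH3, or 12.8%, against 13.3% of all genes in both directions. All 6 fell, where 7.0% of all genes fell, and 0 rose, where 6.33% of all genes rose. The median of the 47 was -0.06 on SH3 and -0.11 on SH1, where none of the 47 passed (smallest limma adjusted p = 0.177). The controls themselves differed on this list by a median of -0.0612 (SCR minus LEN-GFP). With each array centred on its median the list median was -0.027 on SH3 and -0.1055 on SH1. TYMS, thymidylate synthase, fell by 0.77 on SH3 and CCNE1, cyclin E, fell by 0.90. Both hairpin arrays lay below both controls for 19 of these 47 genes, against 2 of 48 for G2 and mitosis and 19.0% of all genes. Of 22 tested G1 cyclins, CDKs, inhibitors and E2F factors, 1 rose and 5 fell on SH3. Together these were 27.3%, against 13.3% of all genes (6.33% higher and 7.0% lower). The difference between these lists was not tested.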

How the data were processed

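RNA of 4 NOMO-1 cultures (200 ng each) was hybridised to 1 array each, and the authors deposited linear intensities for 33297 probe sets. Affymetrix Expression Console 1.1 and RMA are named in the submitters' processing notes, and how RMA output was made linear is not stated there. RMA usually includes a quantile step, which hides a change in total RNA per cell. Their number limits the precision, and no detection value was used.

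The deposited intensities were turned to log2 without an offset. Probe sets with a single symbol in the platform annotation were 19460, those with several 1754 and those left unnamed 12083. Of 18417 genes, the 5525 with the lowest mean (30%, under 6.70) were left out. limma 3.58.1 (R 4.3.3, eBayes with an intensity trend, two-sided, Benjamini-Hochberg over 12892 genes, threshold 0.05) compared the groups (2 residual and 2.95 prior degrees of freedom), and each hairpin array with the controls in a 3-group fit whose spread came from the control pair (1 residual and 7.85 prior). The fits were also run on simulated arrays with independent noise and the same change on both hairpin arrays. Those runs do not cover a change on a single hairpin array or a spread between different constructs. The 49 genes, the role lists, the 110 other genes and the marker lists were chosen with earlier results of these data known, so list counts are descriptions. All genes of the list are named, and the values of 1 gene of the wider list that rose on SH3 are not reported here. The 4 array values are given for ZFX, the genes called among the 48 and, per role, the largest difference on SH1 and on SH3, and for further genes chosen after their values were seen, as were the promoters shown. Alternatives changed the filter, trend, probe set rule, offset (50), scaling and arrays used.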

Additional observations from a re-analysis of the deposited data

Results flagged for a closer look

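CENPF differed between the hairpin arrays by the test of the difference itself, with SH3 minus SH1 at -0.49 on the log2 scale (SE 0.13, limma adjusted p = 0.0493). The adjusted p was 0.0785 with no filter on dim genes and 0.0870 without an intensity trend, and lay between 0.0135 and 0.0870 over the alternatives run.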

How the results depend on the processing

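No paired analysis was possible because no construct was repeated and the labels give no replicate numbers that the groups share. Each test rests on 4 arrays, and a lone hairpin array against 1 control has no residual degrees of freedom, so only its value was taken.

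With no filter on dim genes, 20 genes were called on SH1 (52 as reported), and 1 of the 48 G2 and mitosis genes on SH3 (4 as reported) and 0 between SH3 and SH1 (1 as reported). Without an intensity trend in limma these were 4, 2 and 0. With each array centred on its median they were 390, 11 and 8, with 1923 genes between SH3 and SH1 (1095 as reported). Of all genes, 7.66%, 11.2% and 19.6% were called on SH3 in these settings (13.3% as reported). Between SH3 and SH1 the shares were 4.31%, 6.61% and 14.9% (8.49% as reported). Centring put the median of the G2 and mitosis genes at 0.0539 for the knock-down pair, 0.12 on SH3 and 0.17 for SH3 minus SH1. Quantile normalization again gave 0.0710 on SH3 and 0.11 for SH3 minus SH1. Centring moved the median of all genes on SH3 from -0.0015 to 0.0315, by the same constant as every gene. The cause of the other shifts was not tested.

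Leaving out 1 array gave between 0 and 1698 genes called for the knock-down group, with 0 without either control, 1698 without SH1 and 54 without SH3. The G2 and mitosis genes called there were between 0 and 3 (CENPF, KIF23 and TTK without SH1), and their median between 0.0149 and 0.0835. Against a single control the median was between -6e-04 and 1e-04 on SH1 and between 0.0873 and 0.112 on SH3. Signs of uncalled values did turn. In the knock-down comparison 17 of 48 differences changed sign without SH3, 10 without SH1, 7 without SCR and 4 without LEN-GFP. On SH3 4 did with median centring and 2 with quantile normalization again, all of a size of 0.0307 or less. TTK, KIF23, ASPM and CENPF on SH3, and CENPF between SH3 and SH1, kept their direction under every alternative run for them.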
